A study of Mus musculus with 4 samples.

Results

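The nuclear genes for the subunits of oxidative phosphorylation were compared between control and EM-plasma libraries of B16, an established line of mouse melanoma cells. Members were the rows of the raw count table whose symbol is Nduf followed by a, b, c, s or v and a digit, Sdha to Sdhd, or starts with Uqcr, Cox4 to Cox8 or Atp5. Names ending in -ps with or without a number were passed over, and a row needed at least 40 reads summed over the 4 libraries. The pattern matched 96 rows, of which 8 had a -ps name and 10 had fewer reads, and this left 78 members among 53465 rows of the table. By symbol, 38 members belong to complex I, 4 to complex II, 8 to complex III, 11 to complex IV and 17 to complex V, and they lie on 19 chromosomes. The members nearest above the minimum were Ndufb4c with 45 reads and Ndufa4l2 with 395, and the rows nearest below it were Cox6c2 with 15 and Cox7a1 with 12. All 78 members entered the test over 13664 genes. Annotation called 77 of them protein coding, and Ndufb4c (chr15:73809507-73809896, minus strand) is a processed pseudogene.

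The study holds 2 libraries of control B16 cells and 2 libraries of B16 cells after 4 h with EM-plasma, which the labels describe as plasma that was treated with exosome-mimetic nanovesicles. No genotype or added gene is given for either group. The nature of the plasma, the treatment of the controls and their time of collection are not given in the labels. Separate cultures are not stated either, so every p-value here reflects sample-to-sample spread that may be technical.

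Oxidative phosphorylation takes electrons from NADH at complex I and from succinate at complex II. The electrons pass through ubiquinone, complex III, cytochrome c and complex IV to oxygen, while protons are pumped across the inner mitochondrial membrane and drive ATP synthesis by complex V. Most subunits are encoded in the nucleus and imported, and a few core subunits are encoded in mitochondrial DNA. Melanoma cells are known to use both respiration and glycolysis, and the coactivator PGC-1alpha (Ppargc1a) is known to raise respiratory genes in some melanomas. The comparison bears on whether transcripts of the respiratory chain differ between EM-plasma and control cells.

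Promoters of some members carry short motifs that textbooks tie to respiratory gene control, and a few are printed here to show what such matches look like. RefSeq promoters (build GRCm38.p6, from 250 bases before to 50 after the start, 300 bases in all) were found by symbol or gene ID for 62 of the 78 members. Atp5a1, Atp5f1, Atp5mpl, Atp5s, Cox4i1, Cox6c, Ndufa2, Ndufa4l2, Ndufb4c, Ndufb9, Ndufs1, Sdhc, Uqcrb, Uqcrc2 and Uqcrq were among those with no entry. For each complex, the stretch of 120 bases just before the RefSeq start of a member is shown. It is the member with the highest level per transcript length that had an NRF1-type or ETS-type match in that stretch. NRF1 is nuclear respiratory factor 1, and ETS-type sites bind GABP, also called nuclear respiratory factor 2. Capitals mark the NRF1-type match (GCGC, any base, then TGCGC, on either strand) and the ETS-type match (CCGGAAG on either strand). By GENCODE, the genes Ndufb7, Cox6a1 and Atp5c1 start at chr8:83566671, chr5:115348981 and chr2:10080510, inside the printed stretches. The marked matches of Ndufb7 and Atp5c1 and the ETS-type match of Cox6a1 then lie inside the GENCODE gene. Sequences run 5′ to 3′ on the strand of the gene, at chr8:83566638-83566757 (plus) for Ndufb7, chr9:50603850-50603969 (minus) for Sdhd, chr4:116075071-116075190 (minus) for Uqcrh, chr5:115348959-115349078 (minus) for Cox6a1 and chr2:10080433-10080552 (minus) for Atp5c1.
Ndufb7: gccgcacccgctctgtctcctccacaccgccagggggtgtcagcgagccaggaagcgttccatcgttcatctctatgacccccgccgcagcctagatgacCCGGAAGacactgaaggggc
Sdhd: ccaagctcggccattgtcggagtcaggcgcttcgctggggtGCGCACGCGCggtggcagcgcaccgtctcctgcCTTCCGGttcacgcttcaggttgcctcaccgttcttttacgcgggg
Uqcrh: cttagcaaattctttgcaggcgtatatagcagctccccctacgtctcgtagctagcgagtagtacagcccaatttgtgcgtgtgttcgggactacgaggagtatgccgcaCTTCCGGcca
Cox6a1: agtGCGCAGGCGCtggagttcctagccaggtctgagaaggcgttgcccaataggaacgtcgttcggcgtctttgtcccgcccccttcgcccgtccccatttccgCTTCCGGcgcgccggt
Atp5c1: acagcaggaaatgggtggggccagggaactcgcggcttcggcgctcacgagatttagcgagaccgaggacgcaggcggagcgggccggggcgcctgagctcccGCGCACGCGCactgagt

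Another motif, AAGATGGC, is the core of sites for the factor YY1, and its own transcript is described with the regulators. In 6 of the 7 members with a full window the motif lay between 22 and 33 bases after the RefSeq start. In Atp5j it lay 88 bases before the RefSeq start. GENCODE places some gene starts further upstream, at chr16:84835625 for Atp5j, chr10:80249121 for Ndufs7 and chr5:145192062 for Atp5j2. By GENCODE the Atp5j match therefore lies inside the gene, and the distances hold for the RefSeq starts only. The promoters end 50 bases after the start, so a match close to that end has no full window of 24 bases. A full window was lacking for 2 further matches, which are not shown. The upper end of the range is therefore limited by the search, and no clustering of positions is read from it. Windows of 24 bases were taken at chr7:3617387-3617410 (plus) for Ndufa3, chr6:126849100-126849123 (minus) for Ndufa9, chr3:51408918-51408941 (minus) for Ndufc1, chr13:73328434-73328457 (minus) for Ndufs6, chr10:80249465-80249488 (plus) for Ndufs7, chr16:84835049-84835072 (minus) for Atp5j and chr5:145191503-145191526 (minus) for Atp5j2. Capitals mark the YY1-type match.
Ndufa3: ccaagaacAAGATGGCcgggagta
Ndufa9: tgtgggagAAGATGGCggccgccg
Ndufc1: tgcggaacAAGATGGCgccgtccg
Ndufs6: tcaccggcAAGATGGCggcggtgc
Ndufs7: ccgaggccAAGATGGCggcgctgg
Atp5j: gtgtaggaAAGATGGCggagtctt
Atp5j2: aggacttcAAGATGGCgtcactcg

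The NRF1-type match stood in promoters of 17 of 62 members (27.4%) and of 11.9% of the 9786 tested genes with a promoter entry. It stood in 4.60% of all 32851 promoters of the same length. Members and tested genes were counted if any of their promoters matched. The share of all promoters counts each promoter by itself, so it has another unit and is not directly comparable. For the ETS-type match the shares were 25.8% of members, 20.9% of tested genes and 8.86% of all promoters. The YY1-type match was found in 9 members (14.5%), against 5.50% of tested genes and 2.75% of all promoters. At least 1 of these 3 motifs stood in 36 of 62 members (58.1%) and in 33.6% of tested genes. AAGGTCA, the site of estrogen-related receptors, stood in 12.9% of members and 3.74% of tested genes. CCAAT, the NF-Y box, stood in 41.9% of members and 43.4% of tested genes. TGACGTCA, the CREB site, stood in 6.45% of members and 3.63% of tested genes, and TACGTG, a HIF-type site, in 1.61% of members (Uqcr11 alone) and 4.5% of tested genes. All motifs were searched on both strands and counted separately, so matches of different motifs may overlap. These are matches of letters, with no measure of binding.

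Poly(A) RNA gave 46295133 to 49367932 counts per library, and 18954 to 19493 genes were detected per library. Levels are given as CPM (counts scaled to a common library size with edgeR's TMM factors). All 8 melanocyte markers were tested and 0 were called by edgeR or DESeq2 (3 at an unadjusted p below 0.05), and their summed level was 11369 to 11445 CPM in the controls and 11539 and 11732 CPM after EM-plasma. The defining markers of blood, endothelial, epithelial and muscle cells were at 0 to 0.464 CPM in each library, and of the leukocyte markers Ptprc and Itgam were at 0. Cd68 had 0.865 to 1.74 CPM. Of the fibroblast markers, Dcn had 1 read in all, Col1a1 had 2.56 to 4.27 CPM and Pdgfrb 24.0 to 28.4 CPM. Over the whole table, the quasi-likelihood test of edgeR, with p-values adjusted by Benjamini and Hochberg's method over all genes, called 849 of 13664 genes at an adjusted p below 0.05, which is 6.21%. Of these, 456 (3.34%) were higher and 393 (2.88%) lower after EM-plasma.

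None of the 78 members passed the test between EM-plasma and control cells: 0 were called higher and 0 lower by edgeR's quasi-likelihood test. DESeq2 also called 0 of the 78. At an unadjusted p below 0.05 the edgeR test found 1 member, Ndufv3, against 19.5% of all tested genes. The log2 fold change, EM-plasma over control, was below 0 in 45 members and above 0 in 33. Its median over the members was -0.010, beside -0.0027 over all tested genes, and the middle 50% of members lay between -0.046 and 0.020. Both EM-plasma libraries stood above both controls in 9 members and below both controls in 15. Over all genes these shares were 24.3% and 24.8%, and in 54 members the groups overlapped. As the libraries are bulk RNA, fewer cells with a transcript and less transcript per cell cannot be told apart.

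A p-value that misses the threshold does not show that levels were alike, so the precision is given too. The 95% interval of the log2 fold change lay within 0.2 of 0 in 69 of 78 members and within 0.3 of 0 in 75. These intervals rest mostly on spread that edgeR shares over genes. Only 2 of their 27.5 degrees of freedom come from a gene's own libraries. At the precision of the fit, a member needed a fold of 1.13 (median over members) to be called, with 1.09 for the best measured member. Among the 75 members with a mean of at least 10 CPM the fold needed was 1.23 or lower, and for the sparse Ndufb4c it was 3.97. The members are deeply covered: their median was 86.0 CPM, against 31.1 CPM over all tested genes. Between 1.135% and 1.149% of the counts of each library fell on members.

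**Figure D1:**
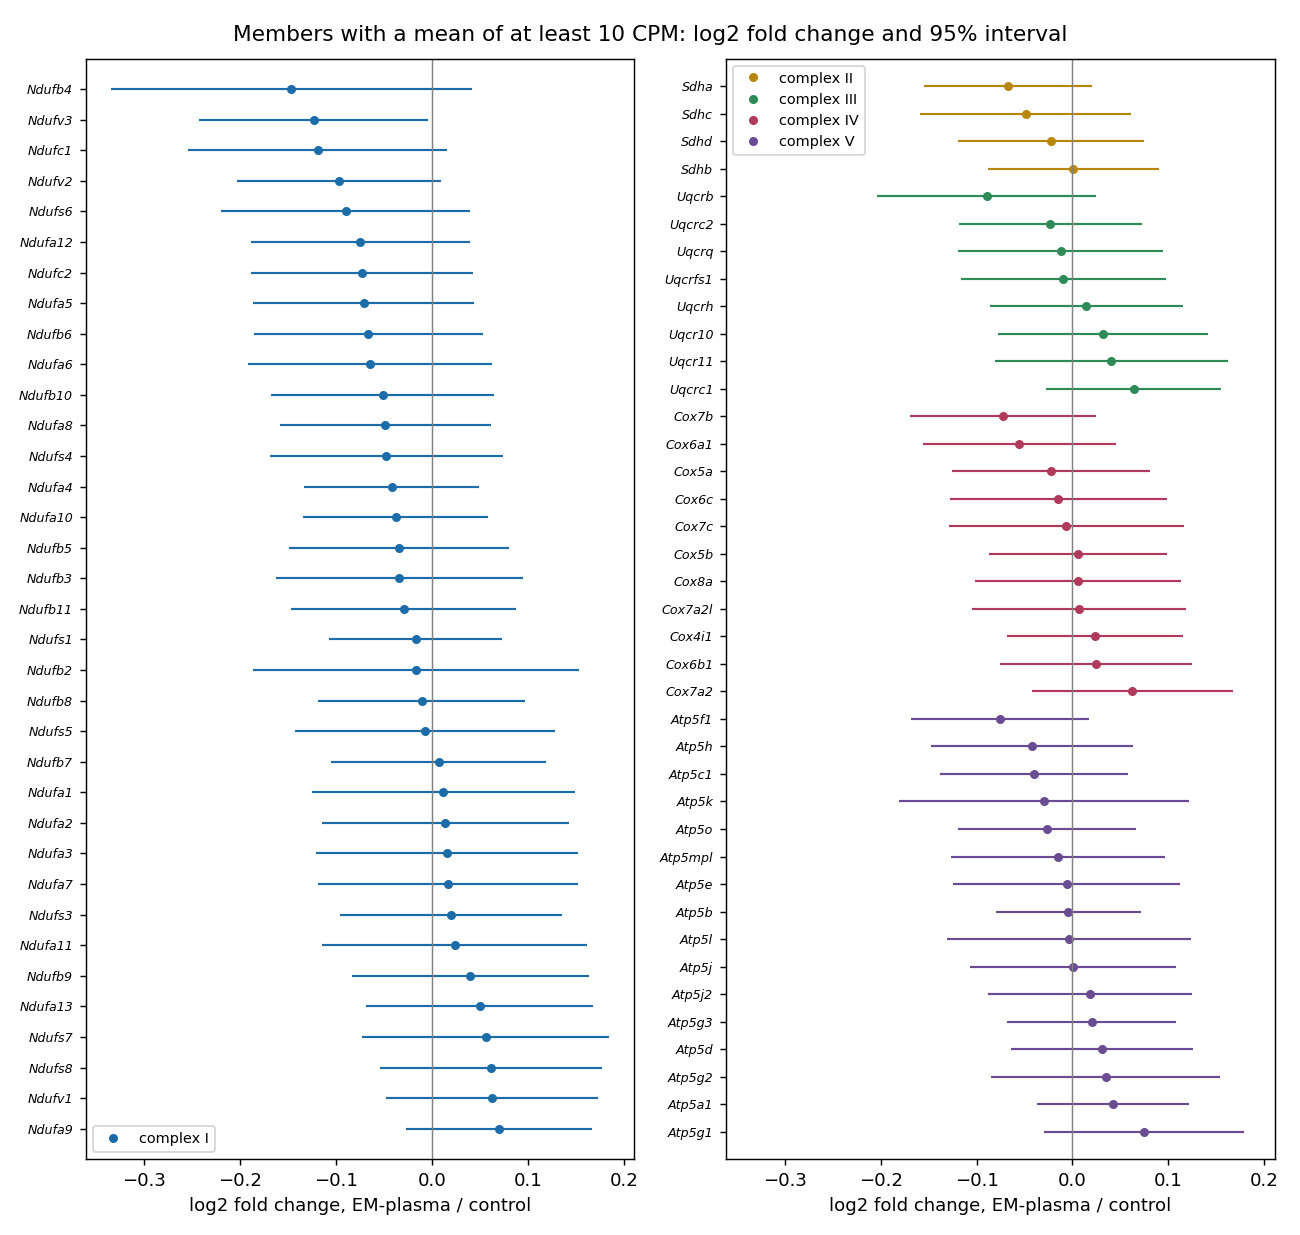
Log2 fold change, EM-plasma over control, of 74 of the 75 members with a mean of at least 10 CPM (horizontal axis), with complex I in the left panel and complexes II to V in the right panel, 1 gene per line. Points are fitted values and bars 95% intervals from edgeR, and every bar but that of Ndufv3 crosses 0.

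The 38 members of complex I, which passes electrons from NADH to ubiquinone, had a median log2 fold change of -0.024, with 23 below 0. Both EM-plasma libraries lay below both controls in 11 of them and above in 3, where over all tested genes the shares were 24.8% and 24.3%. The 7 core subunits, which carry the flavin and iron-sulfur clusters, had a median of 0.027, with 5 of 7 above 0. The remaining 31 members, counted as accessory by symbol, had a median of -0.034, with 10 of 31 below both controls, again beside 24.8% of all tested genes. Accessory subunits support assembly and stability. However, the 31 also hold the pseudogene Ndufb4c, as well as Ndufa4, since assigned to complex IV, and its paralog Ndufa4l2. Ndufb4c and Ndufa4 were among the 10 below both controls. The core subunit below both controls was Ndufv2.

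Among the core subunits, Ndufs1, the largest iron-sulfur subunit, had 277 and 285 CPM in the controls and 276 and 280 CPM after EM-plasma. Its groups overlapped (-0.017, 95% interval -0.11 to 0.073). Ndufv1, the FMN-binding subunit that receives electrons from NADH, had 116 and 106 CPM in the controls and 114 and 118 CPM after EM-plasma. Its partner Ndufv2 had 107 and 113 CPM in the controls and 103 and 102 CPM after EM-plasma. Ndufv1 overlapped between groups (0.062, 95% interval -0.048 to 0.17). Both EM-plasma libraries of Ndufv2 were below both controls, and the difference did not pass the test (-0.097, 95% interval -0.20 to 0.009, edgeR adjusted p = 0.312). Ndufs7 had 63.8 and 56.1 CPM in the controls and 62.5 and 62.1 CPM after EM-plasma, and Ndufs8 had 82.6 and 75.7 CPM against 82.3 and 82.8 CPM. Both carry iron-sulfur clusters near the ubiquinone site, and in both the EM-plasma values lay between the controls or at the level of control 1.

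The accessory member with the smallest p was Ndufv3 (chr17:31520115-31531331, plus strand), a small subunit next to the flavin site, which is named here after its values were seen. It had 72.0 and 68.2 CPM in the controls and 62.6 and 66.1 CPM after EM-plasma. Both EM-plasma libraries were below both controls. Its log2 fold change was -0.12 (SE 0.058, 95% interval -0.24 to -0.004) and its edgeR adjusted p was 0.234. Ndufb4, an accessory subunit of the membrane arm, had 16.4 and 18.4 CPM in the controls and 14.5 and 16.9 CPM after EM-plasma (-0.15, 95% interval -0.33 to 0.041). Its groups overlapped. Ndufc1, also in the membrane arm, had 34.8 and 35.7 CPM in the controls and 32.7 and 32.2 CPM after EM-plasma (-0.12, 95% interval -0.25 to 0.015). Here the groups were apart. Ndufc2, its neighbour in the membrane arm, had 69.3 and 69.7 CPM in the controls and 66.3 and 65.7 CPM after EM-plasma, apart as well (-0.073, 95% interval -0.19 to 0.042). At the other end, Ndufa9, which lies near the ubiquinone site, had 185 and 193 CPM in the controls and 194 and 203 CPM after EM-plasma (0.069, 95% interval -0.027 to 0.17). Both EM-plasma libraries were above both controls, the nearest by little.

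The 2 sparsest members gave the most extreme values of the complex and the widest intervals. The pseudogene Ndufb4c, whose sequence resembles Ndufb4 so that reads may be shared between them, had 0.41 and 0.25 CPM in the controls and 0.086 and 0.19 CPM after EM-plasma. Its log2 fold change was -1.23 (95% interval -2.49 to 0.029), on 45 reads in all. Ndufa4l2 (chr10:127514967-127517154, plus strand), a paralog of Ndufa4 known as a target of the hypoxia factor HIF1, had 1.93 and 1.79 CPM in the controls and 2.32 and 2.30 CPM after EM-plasma. Both EM-plasma libraries were above both controls, and the difference did not pass the test (0.31, 95% interval -0.15 to 0.77, edgeR adjusted p = 0.486). Ndufa4 itself, first described in complex I and since assigned to complex IV, had 239 and 241 CPM in the controls and 233 and 234 CPM after EM-plasma (-0.042, 95% interval -0.13 to 0.049). Per transcript length, Ndufa4l2 made up 0.503% ± 0.029 of the pair in the controls and 0.641% ± 0.0063 after EM-plasma (SD, n = 2 each). Exons of Ndufa4l2 overlap those of Shmt2 on the opposite strand, so its level, fold change and share of the pair are uncertain. Shmt2, a mitochondrial enzyme of serine and glycine metabolism, had 459 and 440 CPM in the controls and 524 and 531 CPM after EM-plasma, and its part in the Ndufa4l2 values was not tested.

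Complex II, succinate dehydrogenase, also belongs to the citric acid cycle and has no mitochondrially encoded subunit. Sdha (chr13:74322254-74350280, minus strand), the flavoprotein, had 345 and 345 CPM in the controls and 326 and 333 CPM after EM-plasma. Both EM-plasma libraries were below both controls, and the difference did not pass the test (-0.067, 95% interval -0.16 to 0.020, edgeR adjusted p = 0.413). Sdhb, the iron-sulfur subunit, had 317 and 314 CPM in the controls and 309 and 322 CPM after EM-plasma (0.0007, 95% interval -0.088 to 0.090). The membrane anchors Sdhc and Sdhd had log2 fold changes of -0.049 (95% interval -0.16 to 0.061) and -0.022 (95% interval -0.12 to 0.074). Groups overlapped for Sdhb, Sdhc and Sdhd. In all 4 genes EM-plasma 1 was the lowest of the 4 libraries.

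Complex III, cytochrome bc1, had 4 of 8 members below 0 and a median log2 fold change of 0.0024. Uqcrfs1, the Rieske iron-sulfur protein and the one nuclear catalytic subunit matched by the rule, had 115 and 120 CPM in the controls and 113 and 120 CPM after EM-plasma (-0.010, 95% interval -0.12 to 0.097). Uqcrc1, a core protein of the matrix side, had 267 and 257 CPM in the controls and 276 and 272 CPM after EM-plasma, so both EM-plasma libraries were higher (0.064, 95% interval -0.027 to 0.16). Its companion core protein Uqcrc2 had 194 and 197 CPM in the controls and 189 and 195 CPM after EM-plasma, with groups that overlapped. Uqcrb, a small subunit at the ubiquinone site, had 79.6 and 84.3 CPM in the controls and 76.1 and 77.9 CPM after EM-plasma. These groups were apart, and the difference did not pass the test (-0.090, 95% interval -0.20 to 0.024). The hinge protein gene Uqcrh had 148 and 146 CPM in the controls and 144 and 153 CPM after EM-plasma, with overlap.

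The 11 nuclear members of complex IV, cytochrome c oxidase, had a median log2 fold change of 0.0056 and 5 values below 0. Cox4i1, the largest nuclear subunit, had 270 and 257 CPM in the controls and 266 and 269 CPM after EM-plasma (0.023, 95% interval -0.068 to 0.11). Cox7b, needed for assembly, had 175 and 182 CPM in the controls and 169 and 171 CPM after EM-plasma, apart from the controls (-0.072, 95% interval -0.17 to 0.025). Cox7a2 had 107 and 107 CPM in the controls and 109 and 114 CPM after EM-plasma, and was the one member of this complex above both controls (0.062, 95% interval -0.043 to 0.17). Cox6a1 (chr5:115345642-115348981, minus strand), whose promoter is printed above, had 158 and 149 CPM in the controls and 150 and 146 CPM after EM-plasma. Its groups overlapped (-0.055, 95% interval -0.16 to 0.045). Cox6b1, at the dimer face, differed by 0.024 (95% interval -0.076 to 0.12). For Cox8a, a small membrane subunit, it was 0.006 (95% interval -0.10 to 0.11).

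Several complex IV subunits have a second gene that is used in heart and muscle, in testis or under low oxygen. These partner genes were nearly silent in both groups. Cox4i2, the lung and low-oxygen partner of Cox4i1, had 0 and 2 reads in the controls and 1 and 0 after EM-plasma. Of the muscle partners, Cox6a2 had 3 reads in all, Cox7a1 had 12 and Cox8b had 0. Of the testis partners, Cox6b2 had 1 read in all, Cox7b2 had 1 and Cox8c had 0. A count of 0 allows up to 3 reads in a library, or 0.0609 to 0.0644 CPM, for counting error only. Cox7a2l, a relative of Cox7a2 that joins complexes III and IV in supercomplexes, had 82.4 and 86.1 CPM in the controls and 84.2 and 85.1 CPM after EM-plasma. Per transcript length, it made up 32.5% ± 0.62 of the pair with Cox7a2 in the controls and 31.7% ± 0.50 after EM-plasma (SD, n = 2 each). These shares differed by about the spread between replicates and were not tested.

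Complex V, the ATP synthase, had 10 of 17 members below 0 and a median log2 fold change of -0.0042. Its catalytic beta subunit Atp5b (chr10:128083273-128090391, plus strand) was the member with the highest level, with 1544 and 1553 CPM in the controls and 1527 and 1561 CPM after EM-plasma. The groups overlapped, and the interval was the narrowest of the members (-0.0042, 95% interval -0.079 to 0.071). Atp5a1, the alpha subunit, had 1116 and 1128 CPM in the controls and 1129 and 1182 CPM after EM-plasma (0.042, 95% interval -0.037 to 0.12). Control 2 and EM-plasma 1 of Atp5a1 were nearly level, and EM-plasma 2 stood above the rest. In the central stalk, which turns inside the catalytic head, Atp5c1 had 282 and 310 CPM in the controls and 281 and 295 CPM after EM-plasma. The controls differed by more than the group means did, and Atp5d and Atp5e overlapped too. Atp5f1 of the peripheral stalk, which holds the head still, had 250 and 262 CPM in the controls and 243 and 243 CPM after EM-plasma. It was the one member of complex V below both controls and did not pass the test (-0.076, 95% interval -0.17 to 0.017).

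Subunit c, which forms the rotating membrane ring, is encoded by 3 genes for the same mature protein. Atp5g1 had 138 and 128 CPM in the controls and 142 and 138 CPM after EM-plasma (0.074, 95% interval -0.030 to 0.18), with EM-plasma 2 just below control 1. Atp5g2 had 78.3 and 71.0 CPM in the controls and 77.0 and 75.9 CPM after EM-plasma, with overlap. Atp5g3 had 301 and 302 CPM in the controls and 308 and 304 CPM after EM-plasma, with both EM-plasma libraries above both controls (0.020, 95% interval -0.068 to 0.11). Per transcript length, Atp5g3 made up 51.9% ± 1.53 of subunit c transcripts in the controls and 51.2% ± 0.17 after EM-plasma (SD, n = 2 each). Atp5g1 made up 27.4% ± 0.69 and 28.1% ± 0.25, and Atp5g2 20.8% ± 0.84 and 20.7% ± 0.080. These shares rest on the choice of transcript: with the longest principal transcript of each gene Atp5g1 made up 5.15% and Atp5g3 76.2% in the controls. Atpif1, the inhibitor protein of the ATP synthase, falls outside the naming rule and had 88.7 and 89.5 CPM in the controls and 82.3 and 83.3 CPM after EM-plasma. It stood below both controls and did not pass the test (-0.10, 95% interval -0.21 to 0.005, edgeR adjusted p = 0.281). With the GC trend of each library removed, as described for the members below, it was called (-0.14, edgeR adjusted p = 0.0211), and over 11 alternatives the adjusted p ran from 0.0211 to 0.856.

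Compared as units, the 5 complexes lay close together. Complex II had the lowest median log2 fold change (-0.036), followed by complex I (-0.024), complex V (-0.0042), complex III (0.0024) and complex IV (0.0056). As a measure of spread, each library's median deviation from the genes' own means was taken. Its SD between replicate libraries, pooled over the groups, was 0.037 for complex II and 0.011 for I. It was 0.016 for V, 0.031 for III and 0.0089 for IV. This is not an SD of the median log2 fold changes. No test over a complex was made, and no order is read from the median log2 fold changes. The median of complex I stayed below 0 on leaving out each library (-0.033 to -0.015). Those of the other complexes each changed sign: complex II became 0.0033 without EM-plasma 1, complex III became -0.040 without EM-plasma 2, complex IV became -0.017 without control 1 and complex V became 0.014 without control 2. Summed over members, complex I had 3076 and 3063 CPM in the controls and 3015 and 3057 CPM after EM-plasma, a ratio of group means of 0.989. For complex II the sums were 950 and 943 CPM in the controls and 907 and 943 CPM after EM-plasma (ratio 0.977). Complexes III, IV and V had ratios of 1.01, 0.997 and 1.003. EM-plasma 1 had the lowest sum in complexes I, II, IV and V, and control 2 the lowest in complex III. Both EM-plasma sums were below both control sums in complexes I and II, with EM-plasma 2 of complex II level with control 2 (943 CPM each), and the other sums overlapped between groups.

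**Figure D2:**
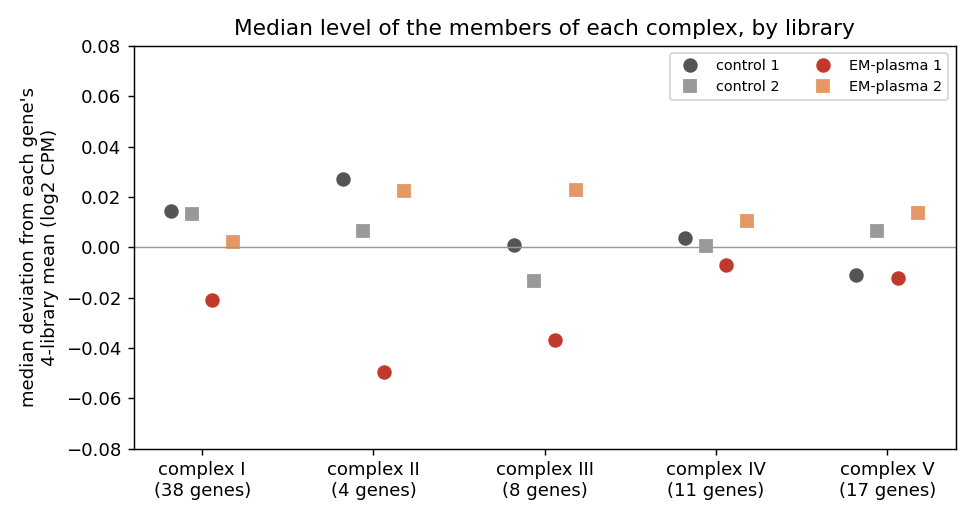
Median over the members of each complex of the log2 CPM deviation from the gene's own mean over the 4 libraries (vertical axis), with 1 point per library and the number of genes under each complex. EM-plasma 1 (red circle) is the lowest point in each complex, and EM-plasma 2 is at or above both controls in complexes III, IV and V.

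The spread of the members was narrow beside that of all tested genes with a mean of at least 10 CPM. Among these genes, 3 of 75 members (4.0%) had a log2 fold change beyond 0.1 in either direction, against 2847 of 9195 genes (31.0%). Beyond 0.2 there were 0 of 75 members and 770 of 9195 genes (8.37%). The 3 members beyond 0.1 were Ndufb4, Ndufv3 and Ndufc1, each with a lower value after EM-plasma. The members' higher CPM gives them smaller errors (median SE 0.054, against 0.060 over genes of at least 10 CPM), and its part in the narrower spread was not tested.

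**Figure D3:**
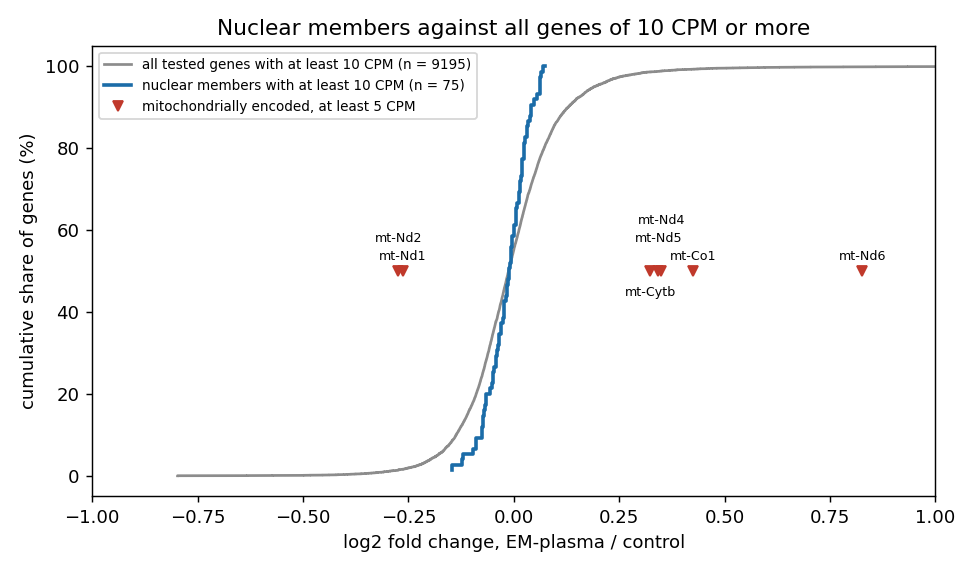
Cumulative share of genes (vertical axis, percent) by log2 fold change, EM-plasma over control (horizontal axis), for the 75 members and all 9195 tested genes with a mean of at least 10 CPM, with triangles for the mitochondrially encoded genes of at least 5 CPM at an arbitrary height (genes beyond the axis are counted but not drawn). The member curve is steeper than that of all genes, and the 7 triangles lie outside the range of the members.

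Per transcript length, the levels of the 5 complexes were stepped. RPKM here is CPM per kilobase of the gene's principal transcript in GENCODE (lowest support level, then the shortest), available for 77 members. The median over members in the controls was 79.1 RPKM for complex I, 137 for complex II, 174 for complex III, 198 for complex IV and 223 for complex V. The middle 50% of members ran from 65.4 to 103 RPKM in complex I, 96.8 to 185 in II, 141 to 213 in III, 164 to 236 in IV and 146 to 254 in V, so neighbouring complexes overlapped. Atp5b was highest of all, with 797 to 815 RPKM over the 4 libraries, and Atp5a1 had 452 to 478. Ndufa4 had 381 to 396 RPKM, above every other member of complex I, of which the next, Ndufb7, had 135 to 142. In complex II, Sdhb had 271 to 282 RPKM and Sdhc 28.3 to 30.4. Uqcrh led complex III with 264 to 280 RPKM, and Cox4i1 led complex IV with 344 to 362. The lowest members were Ndufa4l2, whose exons overlap Shmt2, with 1.92 to 2.48 RPKM and Atp5s, the gene of coupling factor B, with 4.77 to 5.68. These ranges over libraries are small beside the differences between genes, but a per-length level also carries the choice of transcript and the share of reads lost to copies or overlapping genes.

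**Figure D4:**
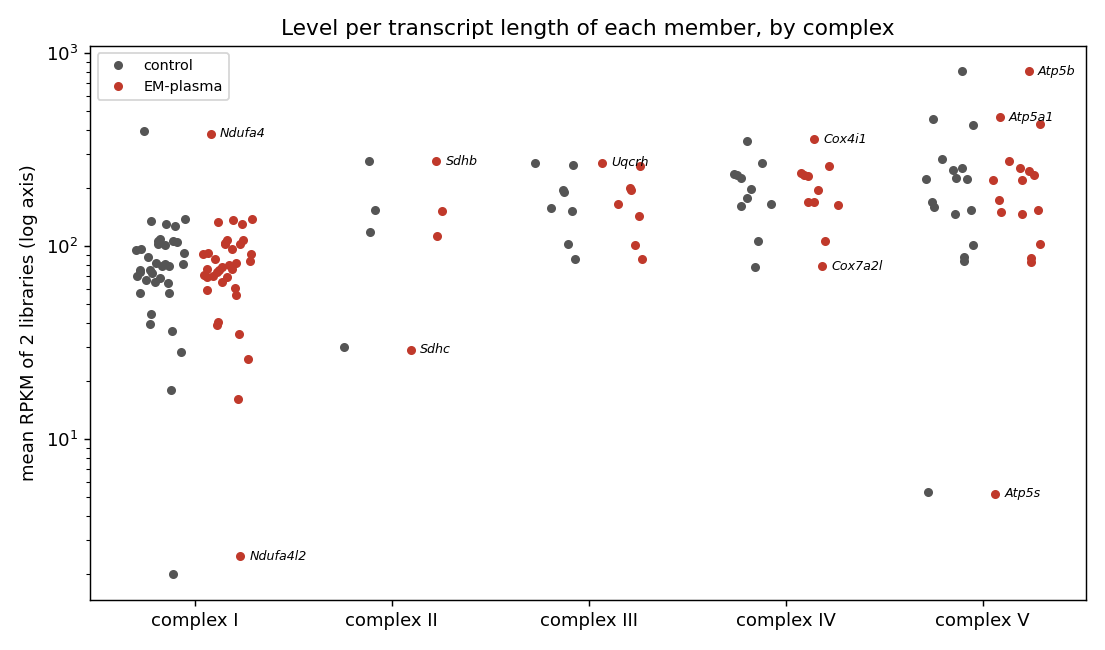
Mean level per transcript length of each member (RPKM, log axis) in the 2 control libraries (grey) and the 2 EM-plasma libraries (red), by complex, with the highest and lowest members named. Each complex spans nearly the same range in both groups, with Atp5b highest near 808 and 806 RPKM and Ndufa4l2 lowest.

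GC content moved with the differences, between replicates as well as between groups. Over the 75 members with at least 10 CPM, the log2 ratio of control 1 to control 2 correlated with GC content of the longest transcript with Pearson's r = 0.58 and Spearman's rho = 0.56. The ratio of EM-plasma 1 to EM-plasma 2 did so with r = 0.011 and rho = 0.036, and the log2 fold change between groups with r = 0.40 and rho = 0.44. These describe 75 genes of the same 4 libraries, which are not independent replicates. Over all genes of at least 10 CPM the values of r were 0.70, 0.24 and 0.29. GC-rich members such as Ndufa11, Uqcr11 and Ndufs7 were higher in control 1 than in control 2. Ndufa11, for example, had 62.4 and 52.7 CPM in the controls and 59.5 and 57.6 CPM after EM-plasma.

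When the GC trend of each library was removed, 2 members were called, both lower. Cox6a1, with one of the highest GC contents of the members (62.7%), then had a log2 fold change of -0.14 and an edgeR adjusted p of 0.0061. Over its 11 alternatives the adjusted p ran from 0.0061 to 0.938. Ndufv3 then had -0.14 and an adjusted p of 0.0303 by the same edgeR test, and its adjusted p ran from 0.0303 to 0.895 over the alternatives. No other alternative called a member, and the same fit raised the calls over all genes to 795 higher and 1017 lower. The part of GC content in the members' differences was not tested further.

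**Figure D5:**
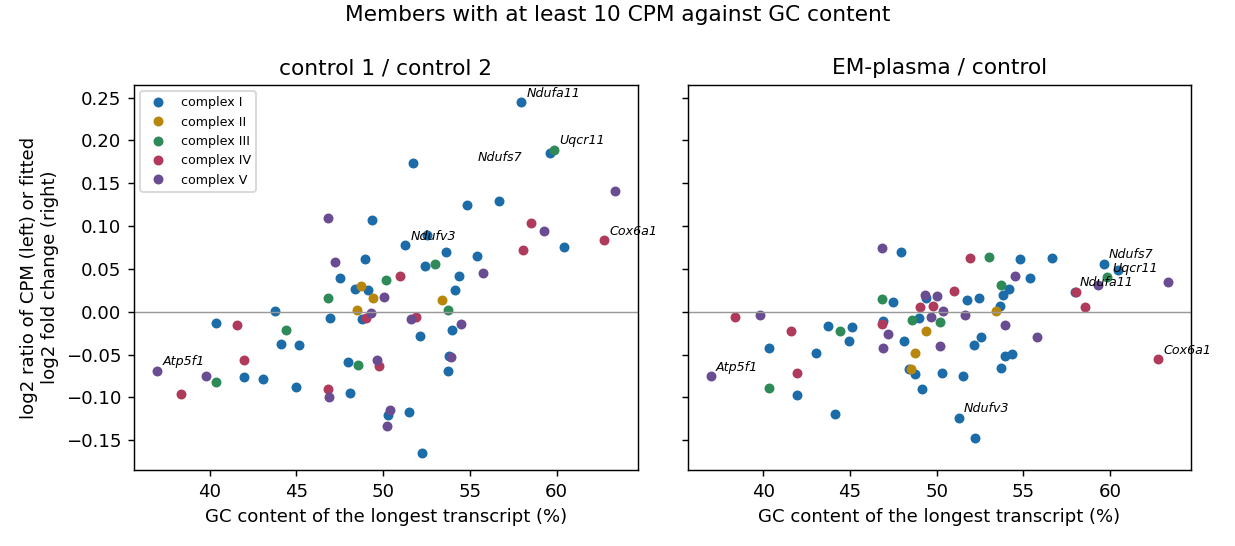
Log2 ratio of control 1 to control 2 (left panel) and fitted log2 fold change, EM-plasma over control (right panel), against GC content of the longest transcript (percent), for the 75 members with at least 10 CPM, coloured by complex. The points slope upward on the left (r = 0.58) and less steeply on the right (r = 0.40), where Cox6a1 lies below the other GC-rich members.

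Reads may be shared with neighbours for some members. Exons of 28 of the 78 members overlap those of another gene, on the opposite strand for 25 and on the same strand for 5. Among the pairs are Atp5j with Gabpa, Cox4i1 with Emc8, Cox6c with Vps13b, Ndufb2 with Braf and Ndufa4l2 (395 reads) with Shmt2 (92584 reads). The library kit keeps the strand, but the strand setting of the counting is not given in the sources used here, so the values of these members are uncertain to that extent. Near-identical copies add to this, as for Ndufb4 with Ndufb4c and for members that have -ps copies (Uqcrh, Atp5c1, Atp5k and Atp5l).

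The other genes of the pathway come from lists chosen by function, with members named for their calls or by the rule. Over all tested genes 3.34% were called higher and 2.88% lower, shares to be read beside the calls of each list. Ndufab1 and Cyc1, nuclear subunits of complexes I and III whose names fall outside the rule, had log2 fold changes of -0.039 (95% interval -0.15 to 0.074) and 0.054 (95% interval -0.042 to 0.15). Cyc1 encodes cytochrome c1. Neither was called. Of 12 tested mitochondrially encoded subunits, 5 rose and 2 fell. Those called had 1450 to 145387 reads over the 4 libraries, and those not called had only 46 to 555, so their levels were poorly measured. mt-Co1, the catalytic subunit of complex IV, had 673 and 638 CPM in the controls and 877 and 884 CPM after EM-plasma, while mt-Nd1 of complex I had 668 and 698 CPM against 568 and 570. Without the filter on low counts the call of mt-Co1 was lost (edgeR adjusted p = 0.05003, the highest of 11 alternatives).

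Assembly factors held 1 call. Of those for complexes I, II, III and V, 0 of 21, 0 of 4, 0 of 6 and 0 of 6 were called by the edgeR test, and 3, 0, 1 and 0 of them had an unadjusted p below 0.05. Tmem70 is counted under both complex I and complex V, and the list of complex V also holds the member Atp5s. For complex IV, beside 3.34% of all tested genes, 1 of 26 rose. This was Tmem177, which takes part in the maturation of a core subunit of cytochrome c oxidase, with 15.1 and 16.1 CPM in the controls and 18.8 and 19.2 CPM after EM-plasma. Its log2 fold change was 0.28 (SE 0.083, edgeR adjusted p = 0.0387). The call was lost with DESeq2, without the filter and on leaving out any 1 library, where the values ran from 0.24 to 0.33.

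Of 19 tested genes of electron carriers and ubiquinone synthesis, 0 rose and 1 fell, beside 3.34% and 2.88% of all tested genes. Coq8a, an atypical kinase of ubiquinone synthesis, had 14.7 and 13.4 CPM in the controls and 10.9 and 11.04 CPM after EM-plasma. Its log2 fold change was -0.35 (SE 0.097, edgeR adjusted p = 0.0245). This call too was lost with DESeq2, without the filter and on leaving out any 1 library, with values from -0.42 to -0.29. In the citric acid cycle list, 0 of 19 genes were called, 1 had an unadjusted p below 0.05, 15 were below 0 and the median was -0.027. Of import and cristae genes, 0 of 27 were called and 2 had an unadjusted p below 0.05, and of supercomplex factors, carriers and channels, 0 of 16 and 1. DESeq2 also called 0 genes in these 3 lists and 0 in the assembly lists of complexes I, II, III and V.

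Of 25 tested regulators of mitochondrial biogenesis, 1 rose and 1 fell, near the shares of 3.34% and 2.88% over all tested genes. Yy1, the factor whose motif is printed above, had 156 and 166 CPM in the controls and 142 and 144 CPM after EM-plasma. It fell by 0.17 on the log2 scale (SE 0.049, edgeR adjusted p = 0.0399). Its adjusted p ran from 0.0011 to 0.569 over 11 alternatives, and the call was lost in 5 of them: without the filter, with DESeq2 (0.0518), and without control 2, EM-plasma 1 or EM-plasma 2. The 9 members with a YY1-type match had a median log2 fold change of 0.0004, and the 53 without had -0.0076. Myc, a growth factor-induced activator, had 147 and 140 CPM in the controls and 164 and 159 CPM after EM-plasma, and rose by 0.17 on the log2 scale (edgeR adjusted p = 0.0355). Its call was lost without the filter, with the length trend removed and on leaving out any 1 library.

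Gabpa, the DNA-binding subunit of GABP, had 98.4 and 105 CPM in the controls and 90.6 and 90.3 CPM after EM-plasma. It did not pass the test (-0.17, SE 0.054, edgeR adjusted p = 0.0533), and it was called in 5 of 11 alternatives, over which the adjusted p ran from 0.0054 to 0.530. Its exons overlap those of the member Atp5j, which had 114 and 123 CPM in the controls and 117 and 120 CPM after EM-plasma. Ppargc1a had 51.3 and 54.0 CPM in the controls and 48.2 and 49.3 CPM after EM-plasma (-0.11, 95% interval -0.24 to 0.013). Tfam, the packaging and transcription factor of mitochondrial DNA, had -0.12 (95% interval -0.24 to 0.0011). Nrf1 (-0.031, 95% interval -0.15 to 0.088), Esrra (0.075, 95% interval -0.045 to 0.19) and Ppargc1b (0.017, 95% interval -0.14 to 0.18) had intervals that spanned 0. The 17 members with an NRF1-type match had a median of -0.040, and the 45 without had 0.0004. For the ETS-type match the medians were 0.0006 in 16 members and -0.014 in 46. No test was made of these differences.

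A list of genes of glycolysis, of lactate and pyruvate handling and of oxygen sensing is given for reference. It also holds the mitophagy receptors Bnip3 and Bnip3l. Of 19 tested, 0 rose and 4 fell: Slc16a3, Pdk1, Bnip3 and Bnip3l. Slc16a3, a lactate exporter, had 10.6 and 7.17 CPM in the controls and 2.12 and 2.15 CPM after EM-plasma. Pdk1, the kinase that restrains pyruvate dehydrogenase, had 20.9 and 20.3 CPM in the controls and 12.8 and 10.9 CPM after EM-plasma. Both calls were lost without the filter on low counts, and that of Pdk1 also without control 2. In the same 4 libraries the HIF1 target among the members, Ndufa4l2, had the values given above, which did not pass the test.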

How the data were processed

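Poly(A) RNA libraries were made with a stranded kit, per the labels' protocols. GRCm38, CASAVA, TopHat2 2.1.1, HTSeq and edgeR are named in the submitters' processing notes, without roles. The sources used here give neither the annotation release nor the strand setting. The count table deposited by the authors holds whole-number counts per gene and library. The tables of a scaled signal deposited by the authors equalled TMM-scaled CPM within a relative 1.82e-08 and were used only as a check. Rows with no symbol (105) held 0.00596% to 0.00636% of counts.

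Counts were tested in edgeR 4.0.16 (R 4.3.3, limma 3.58.1): filterByExpr, TMM, quasi-likelihood F test with legacy dispersion on group alone, two-sided, Benjamini-Hochberg over 13664 genes, called at an adjusted p below 0.05. SE was obtained by dividing the log2 fold change by the root of F. The 95% intervals use 27.5 total degrees of freedom, of which 2 are residual and 25.46 are prior, shared over genes. The biological coefficient of variation was 4.0%. CPM and RPKM were computed from the counts. Replicates were not duplicates: chi-square per degree of freedom was 8.02 between controls and 2.93 between EM-plasma libraries. Symbols, coordinates, GC content and transcripts came from GENCODE M21 (GRCm38), promoters from RefSeq. The script was tested on simulated data.

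Members and lists were chosen with earlier results of these data known. Named genes (47 tested) were called members, each complex's highest per-length level and highest and lowest fold change, partner genes, catalytic subunits, up to 2 calls per related list and set regulators. Further genes named were chosen after their values were seen. Results on some genes are not reported here. Alternatives were RLE size factors, no filter, DESeq2 1.42.0, the newer dispersion, the replicate number as a block, length and GC trends, each library left out, and member minimums of 100 and 1000 reads. Complex membership with Ndufa4 in complex IV and Atp5s in none was added after seeing the data.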

Additional observations from a re-analysis of the deposited data

How the results depend on the processing

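The direction of each complex's median and the absence of calls among the members were recomputed under 11 fits, 2 member minimums and 1 other assignment. Over the 11 fits and 2 member minimums, members called stayed at 0 in both directions in all but the GC trend fit, which called 2 lower. Members below 0 numbered 45 in the report and 37 to 55 over the fits. This net count hides changes of sign in single members. The sign changed for 27 of 78 members with the GC trend removed, 26 without control 2 and 18 without EM-plasma 1. With RLE size factors and with DESeq2 it changed for 0. Over all genes, 456 were called higher and 393 lower, against 13 and 1 without the filter on low counts, 274 higher with DESeq2, and 795 and 1017 with the GC trend removed. Leaving out 1 library gave 48 to 258 higher and 23 to 289 lower, with the lowest counts without control 2. The cause was not tested, beyond that fewer libraries enter each of these fits and more genes the unfiltered one. The replicate numbers are not stated to pair libraries, and the 2 pairs' deviations correlated at 0.037. With the replicate number as a block, 832 genes were called higher and 851 lower, and 0 members.

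Apart from the fits that leave out 1 library, the complexes' median log2 fold changes moved by less than the SD of the library medians between replicates. Complex IV was the exception, as it became -0.012 with the length trend removed. That SD is of single-library deviations and is not an error of the median log2 fold changes. The comparison with it therefore does not show whether a shift is within error. Some medians nevertheless changed sign. Complex III (0.0024) became -0.014 with the length trend removed, -0.0038 with the GC trend removed and -0.00024 without the filter on low counts. On leaving out 1 library the medians ran from -0.033 to -0.015 for complex I, -0.073 to 0.0033 for II, -0.040 to 0.032 for III, -0.017 to 0.0078 for IV and -0.018 to 0.014 for V. The assignment of Ndufa4 to complex IV and Atp5s to none, chosen after seeing the data, moved no median by more than that SD but took complex IV from 0.0056 to -0.00045. With 2 libraries a group, differences under the median fold needed for a call (1.13) were not detectable for many members, and for Ndufb4c and Ndufa4l2 the depth limits the statement further.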
